A study of Mus musculus with 12 samples.

Results

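10 genes that set how many mitochondria a cell holds and what shape they take were followed in the liver of septic mice: 4 of biogenesis (Ppargc1a, Tfam, Nrf1, Esrra), 3 of fusion (Mfn1, Mfn2, Opa1), 1 of fission (Dnm1l) and 2 of mitophagy (Pink1, Bnip3). They were picked by name for these roles, and all 10 were found among the 25611 genes counted and among the 13190 that had enough reads to be tested. Whole livers of male C57BL/6J mice, 8 to 10 weeks old when purchased, were sequenced in 3 groups of 4 mice. Sham mice had an abdominal incision without injury to the cecum. CLP mice had the cecum ligated and punctured, a model in which gut bacteria leak into the abdomen and cause sepsis. CLP+DCA mice had the same injury and received dichloroacetate (DCA), an inhibitor of the kinases that shut off pyruvate dehydrogenase, at 25 mg/kg into the peritoneum 24 hr post-surgery. Every liver was taken at 30 hr, 6 hr after the injection, and every mouse was given fluids under the skin. An injection at 24 hr is recorded for every mouse, but the methods of the study do not say what sham and CLP mice received.

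Mitochondria are built from nuclear genes that act in a chain. PGC-1α (encoded by Ppargc1a) is a coactivator that carries no DNA-binding activity of its own. It works through factors such as ERRα (Esrra) and NRF1 (Nrf1), which switch on genes of respiration. TFAM packages mitochondrial DNA and activates its transcription. The network is then remodelled: MFN1 and MFN2 join outer membranes, OPA1 joins inner membranes and shapes cristae, DRP1 (Dnm1l) pinches mitochondria apart, and PINK1 and BNIP3 mark damaged ones for removal by autophagy. In the liver, an organ rich in mitochondria, this upkeep accompanies fat oxidation, gluconeogenesis and urea synthesis.

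Reads per mouse numbered 24436513 to 44266819. Among the markers of liver cells, those of hepatocytes summed to between 59600 and 99700 CPM, read counts scaled to the library size, in every mouse, and no marker was at 0 in all mice. A pair of livers stood apart. CLP+DCA replicate 3 had a mean correlation of 0.926 with its own group, against at least 0.9652 for the other 11, and its 7 neutrophil markers (42.6 CPM in sum) and 4 cholangiocyte markers (73.7 CPM) lay above those of the other CLP+DCA mice (at most 13 and 8.43). Its stellate cell markers (188 CPM against 76.1 to 82.5) were higher too, and its lymphocyte markers (0.487 CPM against 1.4 to 2.08) lower. Beside the CLP mice, its neutrophil and cholangiocyte sums lay above their ranges (26.6 to 35 and 16.5 to 54 CPM). Its stellate cell and lymphocyte sums lay within them (88.9 to 325 and 0.359 to 1.26). CLP replicate 3 held muscle RNA: Ckm, Acta1, Myh4 and Actc1 summed to 1060 CPM, of which 675 were Acta1, against at most 1.05 in the other 11 mice. CLP replicate 3 was the highest CLP mouse for 8 of the 10 genes, and CLP+DCA replicate 3 was the lowest CLP+DCA mouse for 7 and the lowest of all 12 mice for 6. The part of either in the results was not tested, and the values are given with and without them.

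The stretches before the start of 3 genes, those that lay lower in every CLP mouse than in every sham mouse, are shown because 2 hold the motif of NRF1, itself one of the genes followed, and the third holds that of GABPA, the other classical regulator of mitochondrial genes. They are RefSeq sequences of GRCm38.p6, the 250 bases before the gene start written 5′ to 3′ on the strand of the gene, with the matches in capitals. Opa1 is at chr16:29579084-29579333 on the plus strand, Esrra at chr19:6921809-6922058 and Tfam at chr10:71238045-71238294, both on the minus strand.
Opa1: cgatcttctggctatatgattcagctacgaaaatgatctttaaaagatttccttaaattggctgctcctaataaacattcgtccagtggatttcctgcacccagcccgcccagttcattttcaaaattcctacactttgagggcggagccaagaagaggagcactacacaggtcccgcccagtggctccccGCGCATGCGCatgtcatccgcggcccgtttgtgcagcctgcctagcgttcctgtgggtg
Esrra: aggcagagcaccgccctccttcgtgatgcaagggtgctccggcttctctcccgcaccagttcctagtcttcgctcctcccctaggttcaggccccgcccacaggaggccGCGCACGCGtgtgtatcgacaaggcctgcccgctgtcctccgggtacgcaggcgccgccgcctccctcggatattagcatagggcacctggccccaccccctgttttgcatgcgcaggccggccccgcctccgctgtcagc
Tfam: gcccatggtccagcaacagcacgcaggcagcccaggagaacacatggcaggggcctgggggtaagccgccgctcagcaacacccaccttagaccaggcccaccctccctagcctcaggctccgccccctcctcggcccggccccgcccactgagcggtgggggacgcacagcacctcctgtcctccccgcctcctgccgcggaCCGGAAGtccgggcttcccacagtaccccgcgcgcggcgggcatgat
In Opa1 the NRF1 motif (GCGCANGCG) matched on both strands at overlapping places, 59 and 58 bases before the start. The match in Esrra began 141 bases before the start, and the GABPA motif (CCGGAAG) in Tfam 47 bases before. Both strands were searched in windows of 250 bases before to 50 after each start, 14 windows for the 10 genes. The NRF1 motif was found in 4 of the 10 genes (Esrra, Opa1, Pink1 and Bnip3) and in 6.25% of 32851 windows of all genes. The GABPA motif was found in 3 (Tfam, Mfn1 and Dnm1l) and in 8.86%, and the motif of ERRα (TNAAGGTCA) in 0 and in 1.28%. The counts are of genes with a match in any of their windows and the percentages are of single windows, so they are not directly comparable. A match describes the sequence and is no evidence of binding.

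In sham liver the mitophagy genes were the most abundant per length. Bnip3 stood at 88.2 ± 9.64 RPKM, reads scaled for library size and gene length (mean ± SD, n = 4), and Pink1 at 81.3 ± 3.49, with overlapping ranges. Mfn2 followed at 21.7 ± 1.98, and then Opa1 at 14.3 ± 0.921, Esrra at 12.8 ± 1.06 and Mfn1 at 11.5 ± 0.501, of which Opa1 overlapped Esrra and Esrra overlapped Mfn1. Tfam (10.2 ± 0.48) and Dnm1l (9.51 ± 0.471) overlapped as well. The regulators Nrf1 (1.82 ± 0.167) and Ppargc1a (1.18 ± 0.284) were the least abundant. Esrra moved from rank 5 per length in sham to rank 8 in CLP and rank 6 in CLP+DCA, while Mfn2, Nrf1 and Ppargc1a kept ranks 3, 9 and 10.

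To ask whether sepsis altered these genes, CLP was compared with sham. Of the 10 log2 fold changes 9 were negative and 1 was positive, with a median of -0.18 against 0.02 over all tested genes. Esrra, Opa1 and Tfam were lower in every CLP mouse than in every sham mouse, 3 of 10 genes where 14.2% of all tested genes were, whereas Ppargc1a, Nrf1, Mfn1 and Dnm1l averaged between 93% and 102% of sham. None of the 10 passed the test over all 12 mice (edgeR quasi-likelihood, Benjamini-Hochberg adjusted over all genes, adjusted p under 0.05), a threshold that 2.78% of all tested genes passed. By unadjusted p under 0.05, 3 were lower (Esrra, Opa1 and Tfam), against 13.1% of all tested genes, and DESeq2 on the same mice called 1, Opa1, against 13.0%. The spread in that test is shared by the 3 groups and includes CLP+DCA replicate 3. Without that mouse edgeR called Esrra, Opa1 and Tfam, 3 of 10 against 23.8% of all genes tested. In bulk liver, fewer cells of a type and less RNA per cell cannot be told apart. Neutrophil markers summed to 26.6 to 35 CPM in CLP and 6.05 to 8.85 in sham, cholangiocyte markers to 16.5 to 54 and 6.17 to 10.2, and lymphocyte markers to 0.359 to 1.26 and 1.56 to 3.39. Hepatocyte markers summed to 59600 to 79100 in CLP and 73900 to 99700 in sham, a lower range that still overlapped, and edgeR called 1 of the 7. The part of these cell types in the results was not tested.

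**Figure D1:**
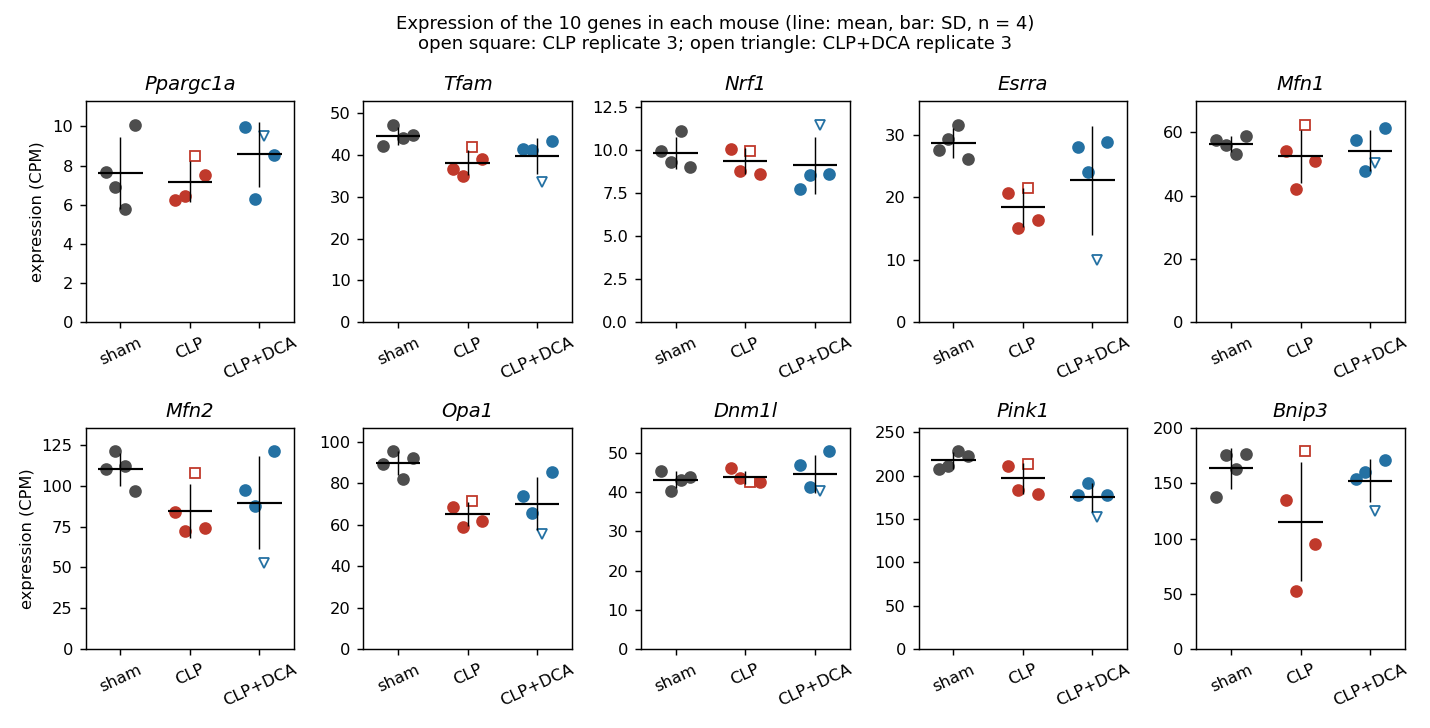
Expression of the 10 genes in CPM (y axes from 0, scaled separately) in the 4 mice of each group; points are mice, lines means and bars SD, with CLP replicate 3 as an open square and CLP+DCA replicate 3 as an open triangle. Esrra, Opa1 and Tfam were lower in all 4 CLP mice than in all 4 sham mice, and Esrra in CLP+DCA replicate 3 (9.94 CPM) lay far below the other 3 (24 to 28.8).

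Of the biogenesis genes, Esrra, the orphan nuclear receptor that partners with PGC-1α, differed most. It stood at 27.5, 29.3, 31.6 and 26.1 CPM in the 4 sham mice, at 20.7, 15, 21.4 and 16.3 in the 4 CLP mice, and at 28, 24, 9.94 and 28.8 in the 4 CLP+DCA mice, each in the order of replicates. All CLP mice lay below all sham mice, and CLP+DCA mice 1, 2 and 4 lay above all CLP mice while replicate 3 lay below them all. The CLP mean was 64.1% of sham, a log2 fold change of -0.64 (95% interval -1.22 to -0.06, edgeR adjusted p = 0.143). Without CLP+DCA replicate 3 the interval was -0.90 to -0.37 and the edgeR adjusted p 0.00623. Esrra overlaps the end of Trmt112, on the other strand, by 50 bases, so that reads there could belong to either gene. Trmt112 had a log2 fold change of -0.26 (edgeR adjusted p = 0.116).

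Tfam, the packaging factor and transcription activator of mitochondrial DNA, was at 42.2, 47.3, 44 and 44.8 CPM in sham and at 36.7, 35.1, 42 and 39 in CLP. The groups did not overlap, although the highest CLP mouse came within 1 CPM of the lowest sham mouse. That mouse was CLP replicate 3, the one with muscle RNA. The log2 fold change was -0.22 (-0.42 to -0.02, edgeR adjusted p = 0.141), and the edgeR adjusted p was 0.0449 without CLP+DCA replicate 3. CLP+DCA mice stood at 41.4, 41.1, 33.5 and 43.3 CPM, of which replicate 3 lay below every sham and CLP mouse.

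The regulators at the top of the chain averaged 94.3% (Ppargc1a) and 95.1% (Nrf1) of sham in CLP. Ppargc1a, the inducible coactivator, averaged 7.62 ± 1.84 CPM in sham mice, 7.19 ± 1.04 after CLP and 8.58 ± 1.65 after CLP+DCA (SD, n = 4), with overlapping ranges throughout. Its log2 fold change in CLP was -0.08 with an interval of -0.50 to 0.33, so that a moderate change in either direction was within the error. Its highest CLP value, 8.51 CPM, was that of the mouse with muscle RNA. Nrf1, the DNA-binding activator of respiratory genes, averaged 9.85 ± 0.908, 9.37 ± 0.765 and 9.11 ± 1.62 CPM in sham, CLP and CLP+DCA. The CLP+DCA value was 8.33 ± 0.494 without replicate 3, which at 11.5 CPM was the highest mouse for Nrf1. In CLP the log2 fold change of Nrf1 was -0.07 (SE 0.13, edgeR adjusted p = 0.73).

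Of the fusion genes, Opa1 differed most. The inner membrane fusion GTPase stood at 89.6, 95.5, 82 and 92.4 CPM in sham, at 68.5, 59.1, 71.5 and 61.7 in CLP, and at 73.7, 65.9, 55.5 and 85.7 in CLP+DCA. No CLP mouse reached the lowest sham mouse, and 1 of the 4 CLP+DCA mice did. Opa1 in CLP was 72.6% of sham, a log2 fold change of -0.46 (-0.74 to -0.19, edgeR adjusted p = 0.0637). The edgeR adjusted p was 0.00967 without CLP+DCA replicate 3, 0.0451 without CLP+DCA replicate 4 and 0.0496 without CLP replicate 3. Leaving out any of the other 9 mice left it above the threshold, up to 0.165 without CLP replicate 2. With DESeq2 on all 12 mice the adjusted p was 0.0122.

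Mfn2, the mitofusin that also tethers mitochondria to the endoplasmic reticulum, stood at 110, 121, 112 and 96.6 CPM in sham, and at 83.6, 72.3, 108 and 73.8 in CLP. CLP replicates 1, 2 and 4 lay below every sham mouse, and the remaining one, with muscle RNA, lay among them. The log2 fold change was -0.38 (-0.85 to 0.09, edgeR adjusted p = 0.256). Its close relative Mfn1 averaged 56.3 ± 2.46 CPM in sham and 52.3 ± 8.41 in CLP, a log2 fold change of -0.10 (SE 0.12, edgeR adjusted p = 0.574). CLP mice of Mfn1 lay both above and below the sham range, from 42 to 62.4 CPM. Mfn1 overlaps Gnb4 on the other strand by 639 bases, whose log2 fold change was -0.19.

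Dnm1l, the fission GTPase, had overlapping values in all groups. It averaged 43.1 ± 2.14 CPM in sham mice, 43.8 ± 1.68 after CLP and 44.7 ± 4.81 after CLP+DCA. In CLP its log2 fold change was 0.02 with an interval of -0.16 to 0.20, and its sign turned (-0.15) when counts were scaled by library size alone, a scaling that moved the median of all genes by -0.17.

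Of the mitophagy genes, Bnip3, a receptor on the outer membrane that is induced by low oxygen, varied most between mice. It stood at 138, 176, 163 and 177 CPM in sham, at 135, 52.6, 179 and 95.2 in CLP, and at 154, 160, 125 and 171 in CLP+DCA. In CLP 3 mice were below every sham mouse and 1 was above them all, again the mouse with muscle RNA. The coefficient of variation was 46.9% in CLP, 10.9% in sham and 12.9% in CLP+DCA. The log2 fold change in CLP was -0.50 (-1.13 to 0.12, edgeR adjusted p = 0.254). A further 5 annotated genes that are not in the counted set (Gm16439, Gm6532, Gm9419, AC160336.1 and Gm45507) have transcripts at least 95% identical to Bnip3 over 200 bases or more, so that its count is uncertain to that extent. Of these, Gm45507 is an antisense gene that overlaps Bnip3 itself on the other strand, and so is no separate copy. Pink1, the kinase that accumulates on depolarized mitochondria, stood at 208, 211, 228 and 223 CPM in sham and at 211, 184, 213 and 179 in CLP. The groups overlapped, and the log2 fold change was -0.15 (edgeR adjusted p = 0.357).

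Without both CLP replicate 3 and CLP+DCA replicate 3, edgeR called 5 of the 10 genes lower in CLP than in sham, against 31.1% of all genes tested in either direction. They were Esrra (log2 fold change -0.71, adjusted p = 0.00215), Opa1 (-0.51, 0.0052), Mfn2 (-0.52, 0.00959), Tfam (-0.27, 0.0176) and Bnip3 (-0.79, 0.0338). Dnm1l (0.04), Nrf1 (-0.09), Ppargc1a (-0.18), Pink1 (-0.18) and Mfn1 (-0.20) did not pass, with edgeR adjusted p between 0.16 and 0.771. This choice of mice was made after the data were seen.

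The effect of DCA was then examined by comparing CLP+DCA with CLP. The log2 fold changes were positive for 8 genes and negative for 2 (median 0.07, against 0.01 over all genes tested). Bnip3, Esrra and Ppargc1a were the highest of them, at 0.40, 0.30 and 0.26. None of the 10 genes passed the edgeR test, which called 0.00758% of all tested genes. An unadjusted p under 0.05 was reached by 0 of the 10, against 10% of all tested genes, and DESeq2 called 0, against 0.815%. In 0 of the 10 genes did the mice of the groups not overlap, against 4.37% of all tested genes. Because CLP mice enter this comparison and that with sham, the 2 sets of fold changes are not independent.

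Leaving out CLP+DCA replicate 3 changed this for Esrra. That mouse had the lowest Esrra value of all mice, so leaving it out raises the CLP+DCA mean by construction, and it was singled out after the data were seen. Esrra averaged 26.9 ± 2.56 CPM in the remaining 3 mice, 94.1% of sham, and all 3 lay above all 4 CLP mice. The log2 fold change versus CLP was 0.55 (0.27 to 0.83, edgeR adjusted p = 0.0383), and Esrra was the 1 gene of 10 called, against 4.64% of all genes tested. It was again the 1 gene called when CLP replicate 3 was left out as well (0.63, edgeR adjusted p = 0.0122), against 16.9%. Mfn2 then had a log2 fold change of 0.41 (adjusted p = 0.0505) and Bnip3 of 0.78 (0.0645), neither past the threshold.

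**Figure D2:**
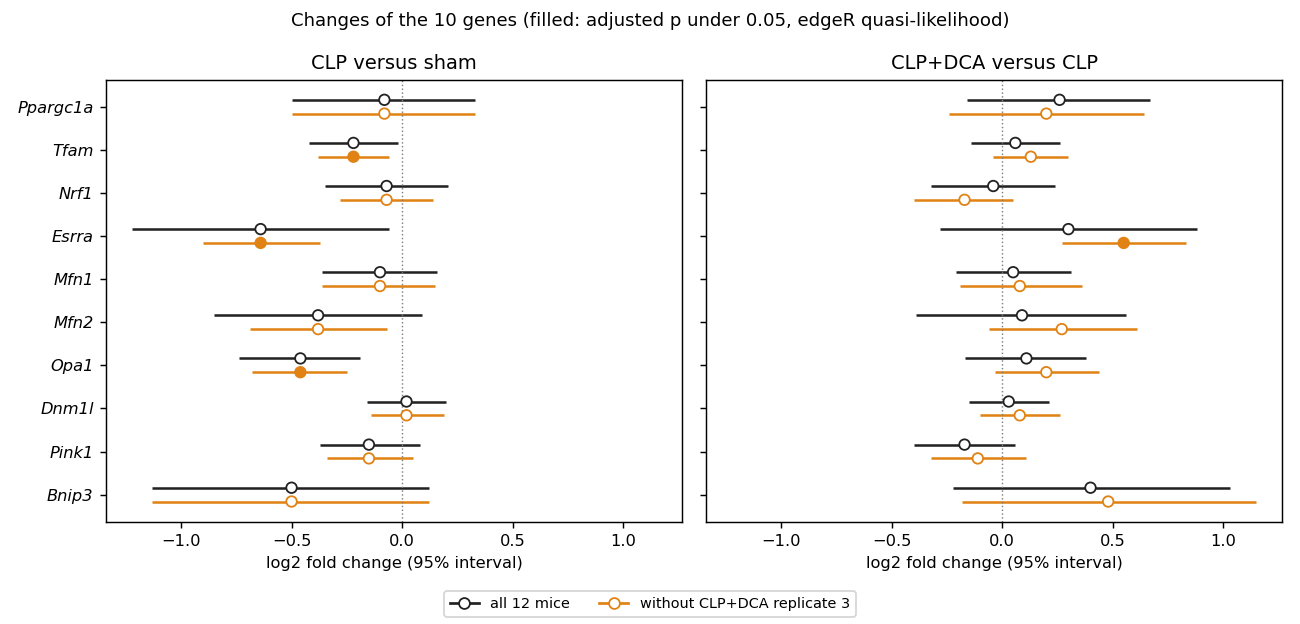
Log2 fold changes of the 10 genes with 95% intervals for CLP against sham (left) and CLP+DCA against CLP (right), from all 12 mice (black) and without CLP+DCA replicate 3 (orange); filled points have an edgeR adjusted p under 0.05. Esrra, Opa1 and Tfam are filled on the left and Esrra on the right, in orange only.

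For the other genes the intervals bound what DCA may have done over all 12 mice. Dnm1l (0.03, -0.15 to 0.21) and Tfam (0.06, -0.14 to 0.26) had the narrowest, and Opa1 lay at 0.11 (-0.17 to 0.38). Esrra (-0.28 to 0.88), Bnip3 (-0.22 to 1.03) and Mfn2 (-0.39 to 0.56) had wide intervals, in which both no change and a return to sham level lie. The narrow interval of Tfam holds both as well, since Tfam was at -0.22 in CLP versus sham. The upper end for Opa1 (0.38) was smaller in size than its log2 fold change in CLP versus sham (-0.46), which has an error of its own. Nrf1 (-0.04) turned its sign (0.05) under scaling by library size alone. Pink1 was the gene with the most negative value, -0.17 (-0.40 to 0.06, edgeR adjusted p = 0.62).

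To see how far CLP+DCA mice were from mice without sepsis, they were compared with sham. The log2 fold changes were negative for 8 genes and positive for 2 (median -0.14 against 0.01 over all genes). None of the 10 genes passed the edgeR test, a threshold passed by 0.0379% of all genes tested, or by 0.0828% without CLP+DCA replicate 3, when 0 of the 10 passed too. Opa1 and Pink1, 2 of the 10, reached an unadjusted p under 0.05, against 13.0% of all genes tested. Pink1 stood at 178, 192, 152 and 178 CPM in CLP+DCA, below every sham mouse, the 1 gene of the 10 that did so, against 4.97% of all genes. Its log2 fold change was -0.31 (-0.54 to -0.09, edgeR adjusted p = 0.29), and DESeq2 called it at an adjusted p of 0.0499, where it called 1.83% of all genes. On the 8 mice compared the DESeq2 adjusted p of Pink1 was 0.104. Opa1 had a log2 fold change of -0.36 (-0.63 to -0.08, edgeR adjusted p = 0.309). Esrra was at -0.34 (edgeR adjusted p = 0.575), and at -0.09 without CLP+DCA replicate 3 (adjusted p = 0.894). Nrf1 was at -0.11 (edgeR adjusted p = 0.696) with overlapping groups. Without CLP+DCA replicate 3, its highest mouse, Nrf1 averaged 84.5% of sham and the remaining CLP+DCA mice lay below every sham mouse. The log2 fold change was then -0.24 (-0.47 to -0.01, edgeR adjusted p = 0.508). Leaving that mouse out lowers the Nrf1 mean by construction.

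Transcripts of the fusion gene Opa1 and the fission gene Dnm1l were set as a ratio within each mouse, which no scaling of libraries can alter. The ratio does not measure fusion or fission themselves. In CLP versus sham Dnm1l had a log2 fold change of 0.02 and Opa1 of -0.46, so the ratio largely repeats the difference of Opa1. The log2 ratio of Opa1 to Dnm1l was 0.98, 1.25, 0.93 and 1.07 in sham, 0.57, 0.44, 0.74 and 0.53 in CLP, and 0.65, 0.67, 0.47 and 0.76 in CLP+DCA. Both septic groups lay wholly below sham and overlapped each other. The difference of CLP from sham was -0.49 and that of CLP+DCA from sham -0.42, each with p = 0.0286 by a two-sided exact permutation test, the smallest that 4 against 4 mice allow, and 0.0857 after Benjamini-Hochberg adjustment over 6 comparisons, which did not pass 0.05. CLP+DCA and CLP differed by 0.07 (exact permutation p = 0.429).

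The 2 mitofusins were set against each other in the same way, and the groups overlapped. The log2 ratio of Mfn1 to Mfn2 averaged -0.96 ± 0.18 in sham mice, -0.68 ± 0.13 after CLP and -0.67 ± 0.42 after CLP+DCA (SD, n = 4). CLP+DCA replicate 3 stood at -0.06, and the other 3 mice between -0.98 and -0.76. The exact permutation p was 0.0857 for CLP versus sham, 0.257 for CLP+DCA versus sham and 0.943 for CLP+DCA versus CLP (0.171, 0.386 and 0.943 after Benjamini-Hochberg adjustment), so that none passed. Without sham replicate 4 the exact permutation p of CLP versus sham was 0.0286, unadjusted and the smallest that 3 against 4 mice allow. The difference was then 0.36, the largest with 1 mouse left out. Without CLP+DCA replicate 3 the difference of CLP+DCA from CLP turned from 0.01 to -0.19 (exact permutation p = 0.171, unadjusted).

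**Figure D3:**
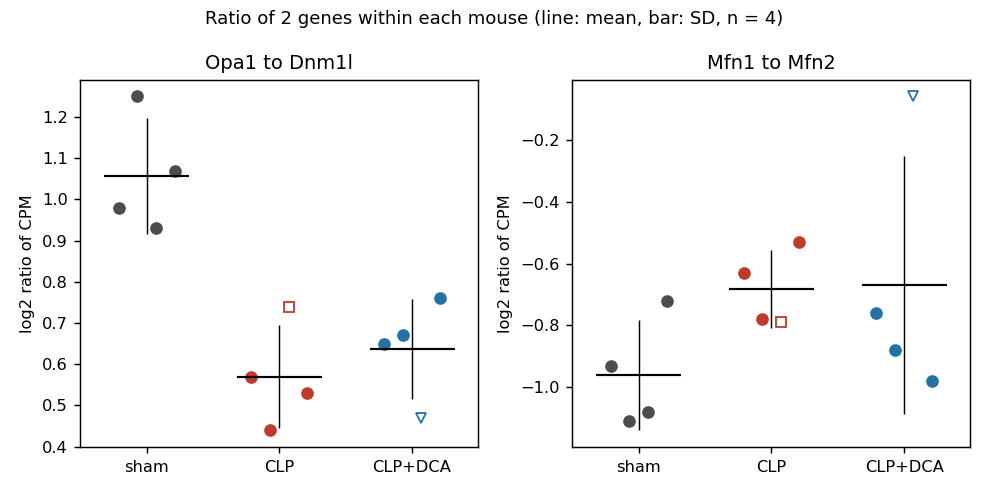
Log2 ratio of CPM of Opa1 to Dnm1l (left) and of Mfn1 to Mfn2 (right) in each mouse; points are mice, lines means and bars SD of 4 mice, with CLP replicate 3 as an open square and CLP+DCA replicate 3 as an open triangle. For Opa1 to Dnm1l, all 8 CLP and CLP+DCA mice sit at 0.76 or lower and all sham mice at 0.93 or higher.

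Over the 12 mice some of these genes moved together. Pearson's r of log2 CPM was 0.94 between Esrra and Mfn2 and 0.93 after the group means were subtracted. Tfam correlated with Opa1 (0.90), Mfn2 (0.90) and Esrra (0.89), and Mfn1 with Bnip3 (0.80). The mice share a library each, and CLP+DCA replicate 3 was the lowest of the 12 for Tfam, Esrra, Mfn2, Opa1, Dnm1l and Pink1, so that these values describe the 12 libraries and carry no test. Among 9086 genes of at least 5 CPM, the closest in pattern to Esrra were Dcaf11 and Emc9 (both 0.99), to Mfn2 Cog4 (0.99) and Tmem184a (0.98), and to Tfam Rap2a (0.97) and Gm3704 (0.96). Scp2 (0.97) was among those closest to Opa1. Those of Pink1 were Lppos (0.92) and Ethe1 (0.90), of Bnip3 Trim12a (0.93) and Rab3ip (0.92), and of Mfn1 Fxr1 and Prpf18 (both 0.90). The closest were less alike for Nrf1 (Gadd45a, 0.85, and Rit1, 0.83), Dnm1l (Caprin1, 0.84, and Hspa4l, 0.83) and Ppargc1a (Actr3, 0.83, and Prpf38a, 0.78).

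The 10 genes were placed beside 134 others of the same processes, of which 131 were tested and Perm1, Mtfr2 and Gdap1 had too few reads. In CLP versus sham 94 of the 131 log2 fold changes were negative (median -0.17), 36 genes (27.5%) were lower in every CLP mouse than in every sham mouse (14.2% of all genes), and edgeR called 1 higher and 4 lower (0.763% and 3.05%, against 2.78% of all genes in either direction). Without CLP+DCA replicate 3 edgeR called 6 higher and 32 lower, against 23.8% of all genes.

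The list of protein import and outer membrane genes was the most one-sided of the 6. Many of them bring nuclear-encoded proteins into the organelle that Tfam and Esrra help to build. The list also holds the Vdac channel genes and the chaperonin genes Hspd1 and Hspe1. Of 34, 32 had a negative log2 fold change (median -0.24). In 14 (41.2%) every CLP mouse lay below every sham mouse, against 14.2% of all genes tested. Where edgeR called 2.78% of all genes in either direction, it called 3 of this list lower (8.82%). These were Timm44 (-0.63, edgeR adjusted p = 0.0294), which holds the import motor at the inner membrane, Pmpcb (-0.52, 0.0478), a subunit of the protease that removes targeting sequences, and Hspa9 (-0.50, 0.0479), the motor chaperone. Without CLP+DCA replicate 3 edgeR called 15 of the list lower, where it called 23.8% of all genes in either direction.

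Among 20 genes of mitochondrial DNA maintenance and transcription, where Tfam acts, 15 log2 fold changes were negative (median -0.19). Where edgeR called 2.78% of all genes in either direction, it called 1 of these lower (5%). That gene was Lonp1 (-0.57, edgeR adjusted p = 0.0254), the matrix protease that degrades TFAM. Mterf4 was at -0.35 (adjusted p = 0.0731). The 18 further biogenesis regulators were split, with 9 negative and 9 positive (median 0.02) and 0 called. The 2 coactivators related to PGC-1α lay on opposite sides. Ppargc1b had 3.66 ± 0.325 CPM in sham and 1.94 ± 0.249 in CLP (-0.91, edgeR adjusted p = 0.0691), and Pprc1 had 12.6 ± 3.02 and 21.2 ± 2.73 (0.75, adjusted p = 0.0702). Neither overlapped between the groups, and edgeR called both without CLP+DCA replicate 3 (adjusted p = 0.00994 and 0.0104).

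Of 18 genes of fusion and inner membrane shaping, 15 were negative (median -0.19) and 0 called. The 2 with the smallest p were Stoml2 (-0.34, edgeR adjusted p = 0.0637), a scaffold of the inner membrane, and Miga1 (1.38, 0.0731), an outer membrane protein that promotes fusion. Of 12 fission genes 8 were negative (median -0.12) and 0 called, with Mtfr1 at -0.26 (edgeR adjusted p = 0.0756) and Mtfp1, an inner membrane protein of fission, at -0.76 (0.0759). The 29 mitophagy genes were evenly split (15 negative, median -0.01). Map1lc3b, the autophagosome protein LC3B, rose (0.63, edgeR adjusted p = 0.0344), and Mul1, a ubiquitin ligase of the outer membrane, was at -0.33 (0.052).

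**Figure D4:**
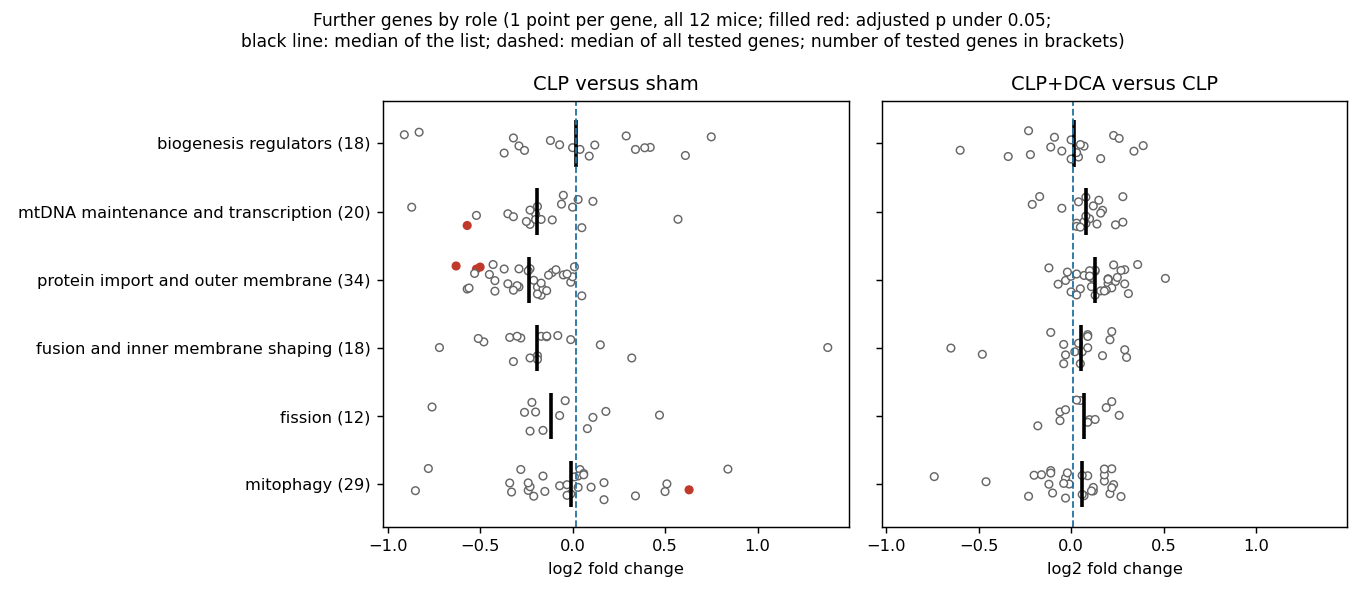
Log2 fold changes over all 12 mice of 131 further genes in 6 lists by role (1 point per gene, number of genes in brackets) for CLP against sham (left) and CLP+DCA against CLP (right); filled red points have an edgeR adjusted p under 0.05, black lines are list medians and the dashed line is the median of all tested genes. In CLP versus sham the protein import list lies furthest to the left (median -0.24), and in CLP+DCA versus CLP furthest to the right (0.13).

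In CLP+DCA versus CLP 90 of the 131 were positive and 41 negative (median 0.08), and edgeR called 0, with 12 higher and 3 lower at an unadjusted p under 0.05 (11.5%, against 10% of all genes). Genes of the protein import and outer membrane list were positive in 29 of 34 (median 0.13). Without CLP+DCA replicate 3 edgeR called 2 of the 131, where it called 4.64% of all genes. Both were of that list: Hspe1 (0.69, edgeR adjusted p = 0.0318) and Tomm40 (0.37, adjusted p = 0.0324), which are named here after their values were seen. In CLP+DCA versus sham 86 were negative (median -0.06) and edgeR called 0, with 2 higher and 9 lower at an unadjusted p under 0.05 (8.4%, against 13.0% of all genes).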

How the data were processed

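RNA of 12 whole livers was sequenced, 4 sham, 4 CLP and 4 CLP+DCA. The authors prepared poly(A)-enriched TruSeq v2 libraries, aligned the read pairs to mm10 using STAR 2.5 and obtained gene counts from featureCounts (Subread 1.5.0-p1). The deposited values are raw read counts per gene, and the annotation and strand setting are not given in the sources used here. A kit of this kind does not mark strand, so overlapping genes cannot be told apart by strand. Genes of the mitochondrial chromosome are not among those analysed.

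Each mouse was 1 replicate, grouped by its label. Nothing says which batches the mice came from. Counts were filtered (edgeR filterByExpr, minimum count 10), normalized by TMM and fitted over all 12 mice with edgeR 4.0.16 in R 4.3.3 (limma 3.58.1, robust quasi-likelihood), and 3 contrasts were adjusted by Benjamini-Hochberg over all tested genes at 0.05. DESeq2 1.42.0 was an alternative, as were the 8 mice compared, RLE or library size scaling, no filter, a replicate block and leaving out each mouse. Leaving out CLP replicate 3 and CLP+DCA replicate 3 together was added after the data were seen. Scripts were tested on simulated data. CPM are on TMM library sizes, log2 CPM have a prior count of 2, and RPKM use the exon union of GENCODE M21. Depth, 24436513 to 44266819 reads per mouse, gave at least 135 reads for each of the 10 genes in every mouse. Reads are not independent molecules, so the SD between mice is the error given.

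Named were the 10 genes, from each wider list those past the threshold (and for CLP versus sham the 2 with the smallest p), and for each gene the 2 most alike over the mice, of which 1 is not reported here. The genes and lists were chosen with earlier results of these data known. The wider lists were written from general knowledge.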

Additional observations from a re-analysis of the deposited data

Results flagged for a closer look

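Of 30 groups of 4 mice (10 genes in 3 groups), 1 held a mouse far from the rest: Esrra in CLP+DCA, where the gap of replicate 3 (9.94 CPM) to the nearest mouse (24 CPM) was 0.8294 of the group's range on the log2 CPM scale, just past the limit of Dixon's test for 4 values. On the CPM scale the share was 0.747, which is under the limit. Chance alone gives such a mouse in about 5% of groups. The same mouse was the lowest CLP+DCA mouse for 7 of the 10 genes.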

How the results depend on the processing

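Of the values recomputed for the 10 genes and the counts, none that passed the threshold turned its direction. Leaving out 1 mouse at a time, edgeR called between 0 and 3 of the 10 genes in CLP versus sham, between 0 and 1 in CLP+DCA versus CLP and 0 in CLP+DCA versus sham. In CLP versus sham, DESeq2 on all 12 mice called 1, against 13.0% of all genes. On the 8 mice compared, edgeR called 2 and DESeq2 4, where they called 2387 and 3428 of all genes. With CLP replicate 3 and CLP+DCA replicate 3 both left out, 5 were called in CLP versus sham, against 31.1% of all genes. In CLP+DCA versus CLP 1 was then called, against 16.9%. DESeq2 on all 12 mice called 1 in CLP+DCA versus sham, against 1.83%. Over all genes, CLP versus sham gave 367 calls, and 209 with library size alone, 122 without a filter, 1894 with DESeq2 on 12 mice, 2387 and 3428 with edgeR and DESeq2 on 8 mice, 4104 without both of those mice and from 10 to 3157 without 1 mouse. CLP+DCA versus CLP gave 1, and 136, 0, 80 and 2227 with DESeq2 on 12 mice, edgeR and DESeq2 on 8 mice and without both mice, and from 0 to 616 without 1 mouse. CLP+DCA versus sham gave 5, and 3 with library size alone, 247, 0 and 169 with those tools, and from 1 to 11 without 1 mouse. Of the 131 further genes, CLP versus sham gave 5 calls, and 3, 2, 27, 30, 40 and 50 under library size alone, no filter, DESeq2 on 12 mice, edgeR and DESeq2 on 8 mice and without both mice, and from 0 to 38 without 1 mouse. CLP+DCA versus CLP gave 25 without both mice and from 0 to 2 without 1 mouse, and CLP+DCA versus sham gave 1 with DESeq2 on 12 mice. Scaling by library size alone turned the sign of Dnm1l in CLP versus sham (-0.15) and of Nrf1 in CLP+DCA versus CLP (0.05), neither of which passed the threshold. Without 1 mouse, the sign also turned for values that did not pass: in CLP versus sham Ppargc1a ranged from -0.20 to 0.08 and Dnm1l from -0.01 to 0.04, in CLP+DCA versus CLP Nrf1 from -0.17 to 0.03, Mfn1 from -0.04 to 0.14, Mfn2 from -0.09 to 0.27 and Dnm1l from -0.03 to 0.08, and in CLP+DCA versus sham Mfn1 from -0.12 to 0.01 and Dnm1l from -0.01 to 0.10. The Mfn1 to Mfn2 ratio ranged from 0.23 to 0.36 in CLP versus sham and from -0.19 to 0.12 in CLP+DCA versus CLP. The cause of these changes was not tested.

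For mice of different groups with the same replicate number, r of their deviations over genes ranged from -0.62 to 0.69 over 12 pairs, and 3 exceeded 0.1. What the numbers stand for is not stated, and whether mice of a number share a batch was not tested. With the replicate block, edgeR called 46, 4 and 0 genes in CLP versus sham, CLP+DCA versus CLP and CLP+DCA versus sham, 0 of the 10 genes and 0 of the 131 further genes.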
